A study of Mus musculus with 8 samples.

Results

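The ubiquitin ligases that restrain T cell activation, their membrane adaptors and a related signalling adaptor were followed in CD4+ T cells of 2 receptor clones. The set holds 10 genes of the 39056 in the deposited count table: Cbl, Cblb, Itch, Nedd4, Ndfip1, Ndfip2, Rnf128, Peli1, Traf6 and Grap. They were chosen by gene name and no measured value entered the rule, but earlier results of these data were known. Each gene matched 1 row. The study sequenced RNA from 4 libraries of SAS cells (replicates 1, 2, 3 and 6) and 4 of ANT cells (replicates 1, 3, 4 and 5). SAS and ANT are T cell receptor (TCR) alpha chains, carried by a retrovirus into bone marrow that was then given to mice. All 8 libraries share the strain C57BL/6J and the genotype CD4-Cre TCRβtg Tcra-/-, that is a Cre driven by the Cd4 promoter, a TCR beta transgene and no endogenous alpha gene. The labels do not say whether that genotype is the donor's or the recipient's, and each group stands for a single alpha chain. CD4+ T cells were sorted by flow cytometry from spleen and lymph nodes that had been pooled. The ages of the mice, and whether each library came from its own mouse, are not given in the sources used here, so the p-values given rest on the spread among libraries, which may be technical. The series title concerns self-reactive clones with features of T follicular helper cells, and the question here is how these genes differ between the clones.

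Ubiquitin ligases attach ubiquitin to selected proteins, which marks them for breakdown or alters their signalling. In T cells, ligases of this set act on kinases, adaptors and transcription factors downstream of the TCR and of costimulation, and mice that lack Cblb, Itch, Ndfip1, Peli1 or, in T cells, Traf6 develop overactive T cells or inflammation. They fall into RING ligases (Cbl, Cblb, Rnf128, Peli1, Traf6), which bring a ubiquitin-loaded enzyme to the substrate, and HECT ligases (Itch, Nedd4), which carry the ubiquitin themselves and are switched on by the membrane adaptors Ndfip1 and Ndfip2. Grap is not a ligase but an adaptor of the GRB2 family, reported in mice to dampen TCR-driven proliferation.

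Library totals were 27600959 to 31810799 counts. In a principal component analysis of log2 CPM (counts per 1e6 counts of library size, scaled by edgeR's TMM method) the first component separated the clones. The second, with 10.6% of the variance, ran within the clones, with SAS replicate 1 (23.55) and ANT replicates 1 and 3 (24.97, 26.64) opposite SAS replicate 2 (−24.98) and ANT replicates 4 and 5 (−25.1, −31.33). Each fit was repeated leaving out either ANT pair. The sorted cells carried T cell transcripts, with all 9 T cell markers tested and a summed level of 7058 to 9631 CPM across SAS libraries and 7548 to 10178 CPM across ANT libraries. B cell markers (6 genes) summed to 1.38 to 3.26 CPM in SAS libraries and 1.31 to 3.21 CPM in ANT libraries. Of the 4 NK cell markers, Ncr1, Klra8 and Klre1 had no count. The remaining one, Klrb1c, was scarce and higher in SAS, at 0.621 to 1.05 CPM against 0 to 0.103 CPM in ANT. Its log2 fold change was 4.33 (edgeR adjusted p 0.000385). Both CD8 markers together held 1.99 to 4.49 CPM across SAS libraries and 14.1 to 66.8 CPM across ANT libraries. Most of the ANT sum was Cd8b1 (13.6 to 62.0 CPM), which was called higher in ANT. Cd8a overlapped, at 0.353 to 1.59 CPM in SAS against 0.517 to 4.78 CPM in ANT, and was not called (edgeR adjusted p 0.0919). The 7 myeloid markers held 2.62 to 7.08 CPM in SAS against 1.14 to 2.17 CPM in ANT. Of these, Itgam alone was called, higher in SAS, while Lyz2 and Mpeg1 were not (edgeR adjusted p 0.332 and 0.0558). SAS replicate 2 held 62 of the 68 SAS counts of Csf1r, which was too scarce to test. The 5 plasma cell markers, mostly Ighm, held 134 to 233 CPM in SAS against 675 to 700 CPM in ANT. Only Ighm among them was called higher in ANT. Igkc and Jchain were not called (edgeR adjusted p 0.838 and 0.808). Sdc1 and Tnfrsf17, too scarce to test, had 80 and 5 counts in SAS against 14 and 0 in ANT. The part of these markers in the results below was not tested.

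SAS cells carried more Cblb and Ndfip1 RNA and less Peli1 RNA than ANT cells, while Rnf128, which encodes the anergy-associated ligase GRAIL, was close to silent in both clones. Cblb rose 2.32-fold (95% interval 1.45 to 3.70), Ndfip1 rose 2.23-fold (1.74 to 2.86), and Peli1 fell to 0.694 of its ANT level (0.600 to 0.802). Of the 10 genes, 9 passed the low-count filter and were tested, and 3 of these were called in edgeR's quasi-likelihood test at an adjusted p under 0.05. That is 2 higher in SAS and 1 higher in ANT, where 37.4% of all 12619 genes tested were called, 19.8% higher in SAS and 17.7% higher in ANT. Scaled by library totals alone, 3064 genes were higher in SAS and 1666 in ANT, against 2497 and 2228 with TMM. By bare separation of the libraries, all SAS lay above all ANT for 3 members (20.5% of all genes tested) and below for 1 member (17.7%). The share called is near that of all genes, and the count is not read as a result about the set. The median log2 fold change (SAS minus ANT) was 0.13 over the 9 tested members and −0.0032 over all genes tested. In bulk libraries, fewer cells carrying a transcript and less of it per cell cannot be told apart.

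**Figure D1:**
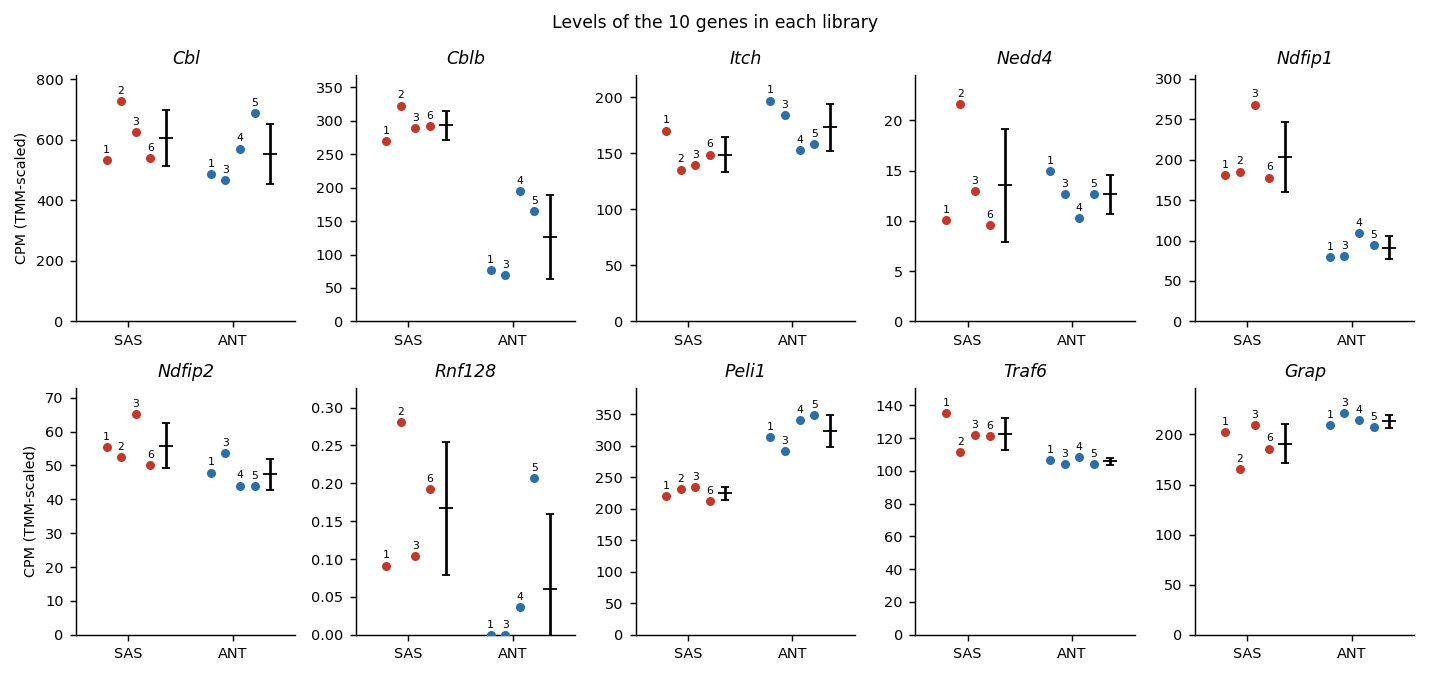
Level of each of the 10 genes in CPM on TMM-scaled library sizes (vertical axes from 0), with SAS libraries left and ANT libraries right. Points are libraries labelled by replicate number and bars are the mean ± SD of 4 (cut at 0 for Rnf128). All SAS libraries lie above all ANT libraries for Cblb, Ndfip1 and Traf6, and below them for Peli1.

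Sequences before the RefSeq start sites of Cbl, Cblb and Peli1 are shown for 2 reasons. Cblb was called between the clones while its paralog Cbl was not, and Peli1 was the member called lower in SAS. Each is the 250 bases before the RefSeq start site (GRCm38.p6, the same genome build as mm10), of the 7 members for which such a window was used. Cblb lies at chr16:52031299-52031548 on the plus strand, Cbl at chr9:44234047-44234296 on the minus strand and Peli1 at chr11:21091074-21091323 on the plus strand. In the gene annotation used here Cblb starts earlier, at 52031225, so its window lies inside the gene. The Peli1 gene starts at 21091291, within its window, and the Cbl window also overlaps the edge of its gene, at 44234049. Distances given below hold for the RefSeq start only. Capitals mark matches, on either strand, to the GC box GGGCGG, the CCAAT box CCAAT or the EGR motif GCGNGGGCG.
Cblb: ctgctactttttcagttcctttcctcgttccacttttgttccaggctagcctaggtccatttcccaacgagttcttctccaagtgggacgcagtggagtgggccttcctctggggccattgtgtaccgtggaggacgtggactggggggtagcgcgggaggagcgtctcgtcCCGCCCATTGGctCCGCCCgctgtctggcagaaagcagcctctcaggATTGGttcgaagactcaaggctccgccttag
Cbl: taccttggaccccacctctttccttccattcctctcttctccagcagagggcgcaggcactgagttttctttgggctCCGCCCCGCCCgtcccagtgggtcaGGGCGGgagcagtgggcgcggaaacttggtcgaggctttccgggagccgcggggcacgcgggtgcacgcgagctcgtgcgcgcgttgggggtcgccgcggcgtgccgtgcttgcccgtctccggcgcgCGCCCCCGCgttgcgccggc
Peli1: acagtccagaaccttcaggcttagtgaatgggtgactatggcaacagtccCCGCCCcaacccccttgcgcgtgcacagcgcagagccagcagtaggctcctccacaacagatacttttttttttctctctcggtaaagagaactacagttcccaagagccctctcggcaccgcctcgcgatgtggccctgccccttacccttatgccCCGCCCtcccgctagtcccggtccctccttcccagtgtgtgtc
The Cblb window held 2 CCAAT boxes, which start 72 and 31 bases before the start site, and 2 GC boxes, of which one adjoins the first CCAAT box. The Cbl window held 3 GC boxes, 2 of them overlapping by a base, and 1 EGR match that starts 20 bases before the start site. The Peli1 window held 2 GC boxes. Among 32851 windows of the same length, 33.8% held a CCAAT box, 32.7% a GC box and 4.70% an EGR match. The short NFAT motif GGAAA, not put in capitals, matched at 2 places in the Cblb window, 3 in the Cbl window and 0 in the Peli1 window, and 55.6% of all windows held it. No match to the AP-1 motif TGANTCA, the CRE TGACGTCA or the FOXO motif GTAAACA was found in these 3 windows. GC content was 58.8% for Cblb, 71.6% for Cbl and 58.8% for Peli1, with 14, 33 and 12 CpG dinucleotides.

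Cblb encodes the Cbl-family RING ligase that, in peripheral T cells, holds back activation when costimulation is missing, and it had the largest log2 fold change of the 9 members tested (ENSMUSG00000022637.10, chromosome 16, 52031225 to 52208048, plus strand, mm10). It stood at 269, 322, 288 and 292 CPM in SAS replicates 1, 2, 3 and 6, against 76.6, 69.2, 195 and 165 CPM in ANT replicates 1, 3, 4 and 5. The groups did not overlap, as for 38.1% of all genes tested. SAS libraries lay close together, whereas ANT libraries formed a low pair, replicates 1 and 3, and a higher pair, replicates 4 and 5. The log2 fold change was 1.21 (SE 0.30, edgeR adjusted p 0.00998), and 13.5% of all genes tested had a larger change in either direction. Cblb was called against the low ANT pair alone (log2 fold change 1.98, edgeR adjusted p 3e-06) and against the higher ANT pair alone (0.70, adjusted p 0.00135), and not in a test against a fold change of 1.5 (adjusted p 0.0678). The SD of log2 CPM was 0.11 in SAS and 0.76 in ANT, and only 3.23% of genes tested had a larger SD than Cblb among the ANT libraries, against 81.3% among the SAS libraries.

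Cbl, the paralog that acts most strongly in thymocytes, was the more abundant of the pair per exon length and did not pass the test (ENSMUSG00000034342.9, chromosome 9, 44142976 to 44234049, minus strand). It stood at 533, 728, 625 and 540 CPM in SAS replicates 1, 2, 3 and 6, against 487, 468, 572 and 688 CPM in ANT replicates 1, 3, 4 and 5. The groups overlapped, and the ANT libraries took the same order of pairs as for Cblb, by less. The log2 fold change was 0.13 (95% interval −0.21 to 0.47, adjusted p 0.536), with −0.059 when ANT replicates 1 and 3 were left out and 0.32 when ANT replicates 4 and 5 were, and neither was called.

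The balance between the paralogs differed between the clones. Counts divided by exon length put Cblb at 37.3%, 34.3%, 35.2% and 38.9% of the sum of Cblb and Cbl in SAS replicates 1, 2, 3 and 6, against 15.6%, 14.9%, 28.6% and 22% in ANT replicates 1, 3, 4 and 5. Such a share does not depend on how libraries are scaled. It averaged 36.4% ± 2.07 in SAS and 20.3% ± 6.43 in ANT (SD, n = 4 each), a difference of 16.1 percentage points with an exact two-sided permutation p of 0.0286, or 0.0381 adjusted over 4 shares. This is the smallest p that 4 libraries against 4 can give.

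**Figure D2:**
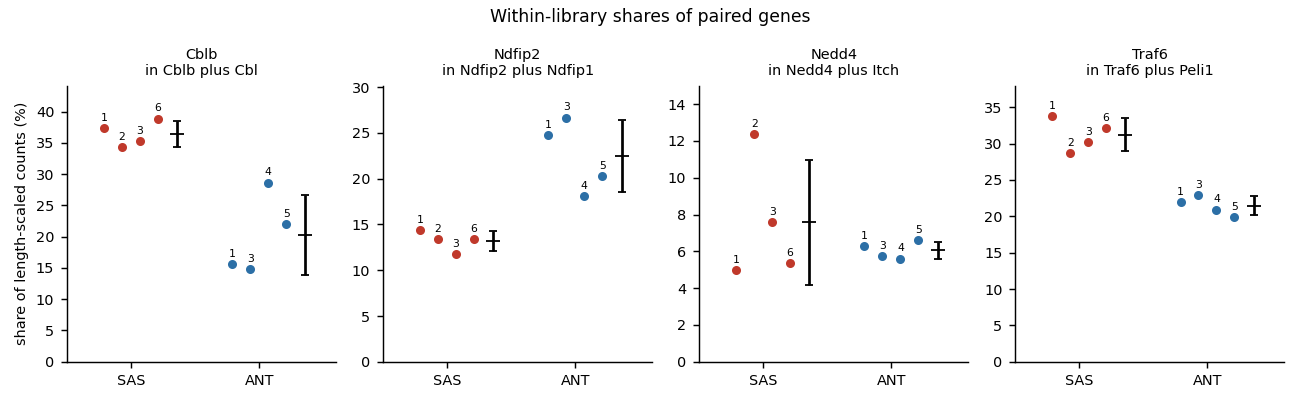
Share of the first gene in the summed length-scaled counts of a pair, in percent (vertical axes from 0), with SAS left and ANT right. Points are libraries labelled by replicate number and bars the mean ± SD of 4. The Cblb and Traf6 shares are higher in all SAS libraries and the Ndfip2 share lower in all, while the Nedd4 share overlaps.

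Among the adaptors of HECT ligases, Ndfip1 rose and Ndfip2 was not called. Ndfip1, a membrane protein that binds and activates Itch and other NEDD4-family ligases (ENSMUSG00000024425.3, chromosome 18), stood at 181, 185, 268 and 178 CPM in SAS replicates 1, 2, 3 and 6, against 79.6, 80.7, 109 and 94.4 CPM in ANT replicates 1, 3, 4 and 5. Every SAS library lay above every ANT library, and SAS replicate 3 stood above the other SAS libraries. Ndfip1 thus had a log2 fold change of 1.16 (SE 0.16, edgeR adjusted p 0.000303), and 0.99 without SAS replicate 3 (adjusted p 0.000555). Ndfip2, its paralog (ENSMUSG00000053253.16, chromosome 14, 105258573 to 105309298, plus strand), stood at 55.4, 52.4, 65.2 and 50.0 CPM in SAS replicates 1, 2, 3 and 6, against 47.9, 53.6, 44.1 and 43.9 CPM in ANT replicates 1, 3, 4 and 5. The groups overlapped through ANT replicate 3, and the log2 fold change was 0.24 (95% interval −0.02 to 0.49, adjusted p 0.134); scaled by library totals alone it was called (0.33, adjusted p 0.0412). A processed pseudogene on the other strand overlaps 553 of its 11553 exon bases and held 2 counts in SAS and 1 in ANT. Ndfip2 made up 13.2% ± 1.08 of the length-scaled counts of both adaptors in SAS and 22.5% ± 3.97 in ANT, without overlap (SD, n = 4 each, exact permutation p 0.0286, adjusted p 0.0381).

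The HECT ligases themselves were not called. Itch, whose loss in mice causes a Th2-biased inflammatory disease (ENSMUSG00000027598.16, chromosome 2, 155133509 to 155226855, plus strand), stood at 170, 135, 140 and 149 CPM in SAS replicates 1, 2, 3 and 6, against 197, 184, 153 and 158 CPM in ANT replicates 1, 3, 4 and 5. SAS replicate 1 lay within the ANT range and the other SAS libraries below it. Its log2 fold change was −0.22 (95% interval −0.48 to 0.04, adjusted p 0.165). It was −0.38 and called without ANT replicates 4 and 5 (adjusted p 0.0213), and −0.071 without ANT replicates 1 and 3 (adjusted p 0.656). Nedd4, which promotes T cell responses and can direct the breakdown of Cbl-b (ENSMUSG00000032216.14, chromosome 9, 72662346 to 72749852, plus strand), was scarce. It stood at 10.1, 21.6, 12.9 and 9.54 CPM in SAS replicates 1, 2, 3 and 6, against 14.9, 12.7, 10.3 and 12.6 CPM in ANT replicates 1, 3, 4 and 5. The spread lay mostly in SAS, where replicate 2 was high, and the log2 fold change of 0.10 (95% interval −0.46 to 0.66, adjusted p 0.789) became −0.22 without that library. Nedd4 made up 7.57% ± 3.41 of the length-scaled counts of Nedd4 and Itch in SAS and 6.06% ± 0.466 in ANT (SD, n = 4 each, exact permutation p 0.543).

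Rnf128, the transmembrane ligase first described in anergic T cells (ENSMUSG00000031438.11, chromosome X, 139563316 to 139673145, plus strand), was the member that could not be tested. It had 3, 8, 3 and 6 counts in SAS replicates 1, 2, 3 and 6, against 0, 0, 1 and 6 counts in ANT replicates 1, 3, 4 and 5. The groups overlapped. The ratio of the summed counts, 20 in SAS and 7 in ANT, was 2.66 after scaling, with a 95% binomial interval of 1.08 to 7.44 that covers counting error only. ANT replicate 5 held 6 of the 7 ANT counts. At 0.0482 ± 0.0254 RPKM in SAS and 0.0175 ± 0.0285 RPKM in ANT (CPM per kilobase of exon, SD, n = 4 each), it lay far below the other 9 genes.

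Peli1 fell in SAS, and Traf6 was not called. Peli1, a Pellino-family ligase that restrains T cell activation in mice through the NF-kB subunit c-Rel (ENSMUSG00000020134.13, chromosome 11, 21091291 to 21150323, plus strand), stood at 220, 231, 234 and 212 CPM in SAS replicates 1, 2, 3 and 6, against 314, 291, 340 and 348 CPM in ANT replicates 1, 3, 4 and 5. The groups did not overlap, and the SAS libraries lay within a narrow range. This is a log2 fold change of −0.53 (SE 0.09, edgeR adjusted p 0.00148), a change too small to pass a test against a fold change of 1.5 (adjusted p 1). Traf6, a RING ligase of receptor signalling to NF-kB that also limits T cell activation (ENSMUSG00000027164.8, chromosome 2, 101678429 to 101701669, plus strand), stood at 135, 111, 122 and 121 CPM in SAS replicates 1, 2, 3 and 6, against 106, 104, 108 and 104 CPM in ANT replicates 1, 3, 4 and 5. All SAS libraries lay above all ANT libraries by a small margin. The log2 fold change was 0.21 (95% interval 0.01 to 0.41, adjusted p 0.0884). DESeq2 called it (adjusted p 0.045), as did edgeR with libraries scaled by their totals alone (adjusted p 0.0208). The Traf6 share of the length-scaled counts of Traf6 and Peli1 was 31.2% ± 2.25 in SAS and 21.4% ± 1.3 in ANT, without overlap (SD, n = 4 each, exact permutation p 0.0286, adjusted p 0.0381). As Traf6 lay higher and Peli1 lower in every SAS library, this separation had to follow and adds no support of its own.

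Grap was the most abundant member per length of exon in both clones and was not called (ENSMUSG00000004837.2, chromosome 11, 61653265 to 61672784, plus strand). It stood at 202, 165, 210 and 186 CPM in SAS replicates 1, 2, 3 and 6, against 210, 221, 215 and 207 CPM in ANT replicates 1, 3, 4 and 5. The groups overlapped, with SAS replicate 2 lowest. This gave a log2 fold change of −0.16 (95% interval −0.38 to 0.06, adjusted p 0.232).

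**Figure D3:**
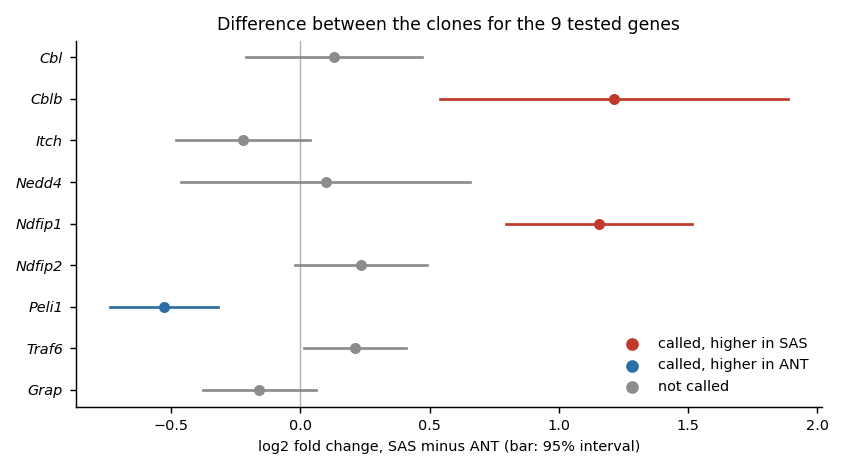
Log2 fold change, SAS minus ANT, of the 9 tested genes from edgeR, with 95% intervals as bars. The intervals of Cblb, Ndfip1 and Peli1 lie away from 0 and these genes were called, at 1.21, 1.16 and −0.53; that of Traf6 also lies above 0 but its adjusted p was 0.0884.

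Levels per exon length put the members in a similar order in both clones, with Cblb and Ndfip1 placed higher in SAS. In SAS, Grap (106 ± 11 RPKM) came first and Cbl (49.1 ± 7.39) second, followed by Peli1 (34.2 ± 1.5), Ndfip1 (32.0 ± 6.85) and Cblb (28 ± 2.1). Ndfip1 did not differ from Peli1 or Cblb beyond its spread, whereas Peli1 stood above Cblb by more than either SD. Traf6 and Itch followed at 15.5 ± 1.24 and 15.3 ± 1.6 RPKM and did not differ beyond their spread. In ANT, Grap (119 ± 3.51 RPKM) was again first, and Peli1 (49.3 ± 3.95) and Cbl (44.8 ± 8.13) overlapped. Itch (17.8 ± 2.15) averaged above Ndfip1 (14.4 ± 2.21) by more than either SD, but ANT replicate 4 had the reverse order. Ndfip1, Traf6 (13.4 ± 0.273) and Cblb (12.1 ± 6.02) did not differ beyond their spread. Ndfip2 at 4.83 ± 0.575 RPKM in SAS and 4.10 ± 0.393 RPKM in ANT, Nedd4 at 1.23 ± 0.510 and 1.15 ± 0.173 RPKM, and Rnf128 came last in both (SD, n = 4 throughout).

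**Figure D4:**
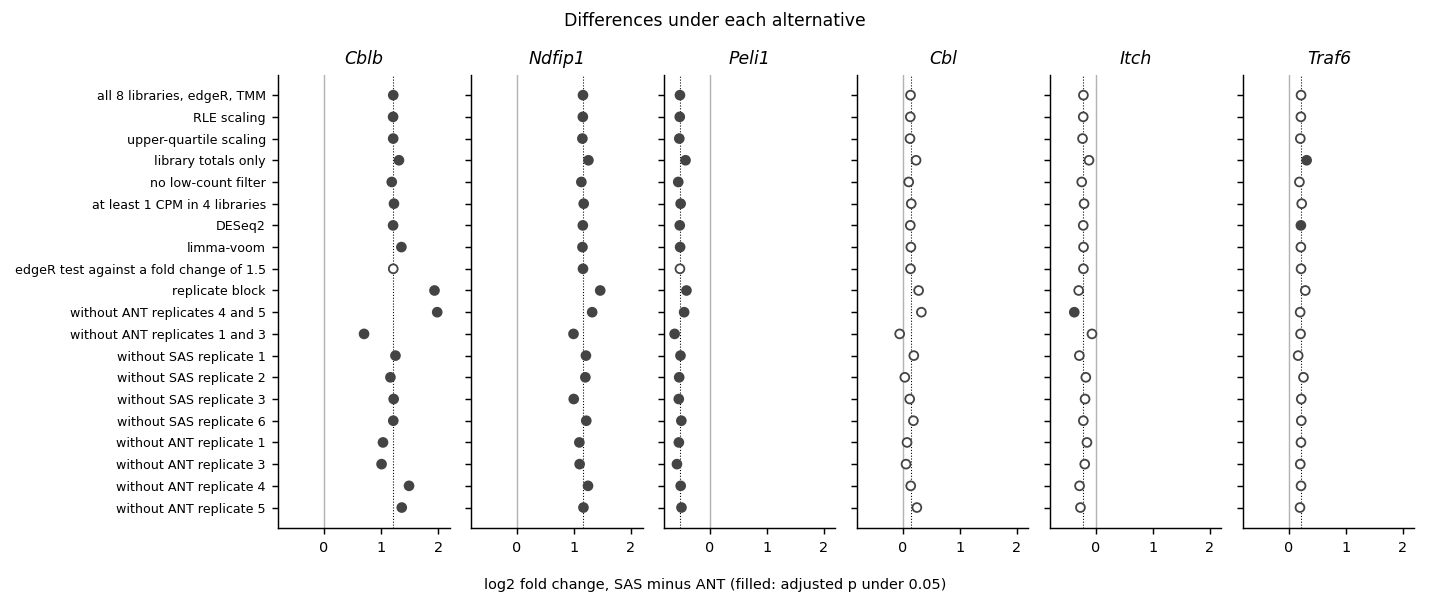
Log2 fold change, SAS minus ANT, of 6 members under each alternative scaling, filter, test or choice of libraries (rows); filled points had an adjusted p under 0.05 and the dotted line is the value with all 8 libraries. Cblb ranges from 0.70 without ANT replicates 1 and 3 to 1.98 without ANT replicates 4 and 5, while Ndfip1 and Peli1 vary less.

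Other genes of the same pathways were taken from 7 lists with 116 genes in all. The relatives of Itch and Nedd4 and the arrestin-domain adaptors that recruit them were lower in SAS where they were called. Of 11, 9 were tested, 0 rose (19.8% of all genes tested) and 6 fell in SAS (17.7% of all genes tested), with a median log2 fold change of −0.57 against −0.0032 over all genes tested; leaving out a single library gave 4 to 6 that fell, and 0 of the 9 passed a test against a fold change of 1.5. Wwp1, a HECT ligase, stood at 25.5 ± 2.94 CPM over the SAS libraries, against 46.2 ± 8.38 CPM over the ANT libraries (log2 fold change −0.86, adjusted p 0.00111). The adaptors Arrdc1, Arrdc2 and Arrdc3 had log2 fold changes of −0.48, −0.71 and −0.70, and Nedd4l had −0.67 (adjusted p 0.0338). Nedd4l lost its call when any of SAS replicates 1, 3 or 6 or ANT replicates 4 or 5 was left out (−0.67 to −0.55, adjusted p 0.0697 to 0.0823), and stood at −0.32 without both of these ANT replicates and at −0.57 (adjusted p 0.0603) with library totals alone, where it was not called either.

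Partners of the Cbl ligases were split. Of 13, 12 were tested, 5 rose and 3 fell in SAS, beside 19.8% and 17.7% of all genes tested, with a median log2 fold change of −0.018. Ubash3b, which encodes the Cbl-binding phosphatase Sts-1, stood at 143 ± 16.3 CPM over the SAS libraries, against 35.4 ± 3.75 CPM over the ANT libraries (log2 fold change 2.02, SE 0.12, edgeR adjusted p 1.16e-06). Cd5 and Cd6, surface receptors that bind signalling proteins in T cells, rose with log2 fold changes of 1.67 and 1.20, and the adaptor Sh2b3 rose with 1.44. Cblc, the epithelial Cbl-family member, was not tested, with 1 count over the SAS libraries and 0 over the ANT libraries. For the adaptor Grb2 the log2 fold change of −0.16 was not called (adjusted p 0.635); it was 0.35 without ANT replicates 4 and 5 and −0.55, and called, without ANT replicates 1 and 3.

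Among genes whose proteins are known substrates of Cbl, Itch or Nedd4 ligases, 4 of 19 tested rose and 4 fell in SAS, near the 37.4% called among all genes tested, with a median log2 fold change of −0.057; without ANT replicates 4 and 5 these counts were 8 and 3, and without ANT replicates 1 and 3 they were 2 and 6. The kinase gene Zap70 stood at 429 ± 14.1 CPM over the SAS libraries, against 236 ± 28.6 CPM over the ANT libraries (log2 fold change 0.86, SE 0.11, adjusted p 0.000134), and Stat5b rose with a log2 fold change of 0.47. Plcg1, the phospholipase of TCR signalling, was not called at a log2 fold change of 0.37 (edgeR adjusted p 0.0631), and was called without ANT replicate 5 (0.47, adjusted p 0.0184), without ANT replicates 4 and 5 (0.61, adjusted p 0.00171), with library totals alone (0.47, adjusted p 0.0247) and by DESeq2 (adjusted p 0.0372). Jun and Junb, the AP-1 subunits that Itch ubiquitinates, were lower in SAS, with log2 fold changes of −1.70 and −1.47. Without ANT replicates 4 and 5 neither was called, at −1.38 for Jun (adjusted p 0.103) and −0.76 for Junb (adjusted p 0.301), and Junb also lost its call without SAS replicate 1 or 6 or ANT replicate 4 or 5 and with no low-count filter (adjusted p 0.0629). Junb stood at 169, 391.6, 540 and 180 CPM in SAS replicates 1, 2, 3 and 6, against 595, 469, 1301 and 1193 CPM in ANT replicates 1, 3, 4 and 5, so that its ANT libraries formed the same pairs as for Cblb and the clones overlapped. Prkcq, which encodes protein kinase C theta, fell by 0.33 on the log2 scale (adjusted p 0.0267). Its adjusted p was 0.0741 without SAS replicate 1, 0.0777 without SAS replicate 6 and 0.0929 with library totals alone. With replicate number as a block in the edgeR fit, Jun (adjusted p 0.573), Junb (0.688) and Prkcq (0.0614) were not called, and Plcg1 was (0.000623). That fit compares the clones through replicates 1 and 3 only, the numbers that both clones share. Among single libraries, SAS replicate 3 or ANT replicate 3 left out gave 2 substrates that rose, SAS replicate 1 or 6 left out gave 1 that fell, and ANT replicate 4 or 5 left out gave 2 that fell.

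Among relatives and regulators of GRAIL, 12 genes in all, 8 were tested, 2 rose and 3 fell in SAS, where 19.8% of all genes tested rose and 17.7% fell, with a median log2 fold change of −0.086; the count higher in SAS was 1 when SAS replicate 1, 3 or 6 or ANT replicate 1, 3 or 4 was left out. Rnf149, a ligase of the same transmembrane family, stood at 61.6 ± 7.24 CPM over the SAS libraries, against 18.4 ± 0.901 CPM over the ANT libraries (log2 fold change 1.74, SE 0.11, adjusted p 1.79e-06). Rnf167, Rnf13 and Znrf3, transmembrane RING ligases as well, fell, at −0.76, −0.56 and −0.81, though Znrf3 lost its call without SAS replicate 1 (adjusted p 0.0515) or 6 (0.0522) and without ANT replicates 4 and 5 (−0.34), and Rnf13 without ANT replicates 1 and 3 (−0.28). Otub1 and Usp8, deubiquitinases that control GRAIL protein, had log2 fold changes of −0.017 and −0.16 with adjusted p of 0.915 and 0.502; Usp8 was called without ANT replicates 4 and 5 (−0.45).

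In the TRAF and Pellino list, 23 of 25 genes were tested, 5 rose and 3 fell in SAS, near the all-gene share of 37.4% called, with a median log2 fold change of 0.14; without ANT replicates 4 and 5 these counts were 9 and 3, and without ANT replicates 1 and 3 they were 4 and 5. Rel, which encodes the Peli1 substrate c-Rel, stood at 302 ± 27.3 CPM over the SAS libraries, against 90.2 ± 2.91 CPM over the ANT libraries (log2 fold change 1.74, SE 0.10, adjusted p 7.83e-07). Otud7b and Traf3 rose with log2 fold changes of 1.02 and 0.52, but Traf3 was not called without SAS replicate 3 (adjusted p 0.0538) or without ANT replicates 1 and 3 (0.32). Traf5 stood at 18.6 ± 3.51 CPM over the SAS libraries, against 62.2 ± 5.36 CPM over the ANT libraries (log2 fold change −1.74), and the deubiquitinase gene Cyld fell by 0.45 on the log2 scale. Traf1 (adjusted p 0.623) and Tnfaip3, the gene of A20 (adjusted p 0.942), were not called, and Tnfaip3 varied widely between libraries, at 748 ± 397 CPM over the SAS libraries, against 776 ± 476 CPM over the ANT libraries. The other Pellino genes were scarce. Peli2 was not tested, with 30 counts over the SAS libraries and 2 over the ANT libraries, and Peli3 averaged 0.332 CPM over the SAS libraries, against 0.397 CPM over the ANT libraries (adjusted p 0.664).

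Of 11 GRB2-family adaptors and partners of Grap, all tested, 3 rose and 5 fell in SAS, where 19.8% and 17.7% of all genes tested did so, with a median log2 fold change of −0.33. Grap2, which encodes the adaptor Gads that links LAT to SLP-76, stood at 173 ± 33.6 CPM over the SAS libraries, against 466 ± 21.3 CPM over the ANT libraries (log2 fold change −1.43, SE 0.14, adjusted p 2.33e-05). Themis and Gab3 were lower in SAS, at −1.13 and −0.96, and Lax1, a membrane adaptor that limits lymphocyte signalling, was higher at 1.24. Of 26 other ubiquitin ligases of T cells, all tested, 3 rose and 6 fell in SAS, again near the 37.4% called among all genes, with a median log2 fold change of −0.087. Without ANT replicates 4 and 5 these counts were 7 and 6, and without ANT replicate 5 the count higher in SAS was 5. Rnf19a (1.81) and Dtx3 (0.86) rose, Rnf125 (−0.95) and Herc1 (−0.64) fell, and Dtx1, a ligase linked to anergy, stood at 68.0 ± 32.8 CPM over the SAS libraries, against 79.9 ± 31.4 CPM over the ANT libraries (adjusted p 0.643; SD, n = 4 each).

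**Figure D5:**
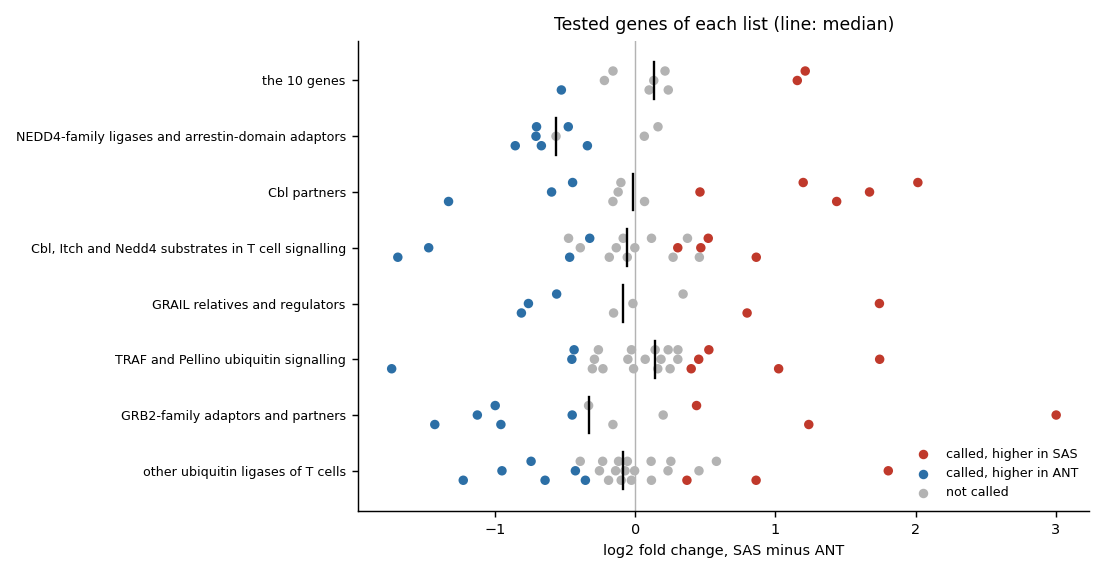
Log2 fold change, SAS minus ANT, of each tested gene of the 10 members and of the 7 other lists (rows), coloured by the edgeR call, with the list median as a line. Called genes of the NEDD4-family list all lie below 0, down to −0.86, while the other lists hold called genes on both sides.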

How the data were processed

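RNA from 4 SAS and 4 ANT libraries was made into strand-specific TruSeq mRNA libraries, per the labels' protocols. The authors deposited 1 table of raw counts for 39056 versioned Ensembl genes. STAR, featureCounts and mm10 are named in the submitters' processing notes; versions, strand setting, annotation release and the handling of multi-mapped reads are not given in the sources used here. IDs were matched without their version to GENCODE M21 (GRCm38): 38872 matched and 184 did not. Exon length is the union of annotated exons.

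The 12619 genes passing edgeR's default low-count filter were tested (edgeR 4.0.16, R 4.3.3, TMM scaling, robust quasi-likelihood, Benjamini-Hochberg adjustment over all of them, threshold 0.05), SAS minus ANT, without covariates. Standard errors are the absolute log2 fold change over the square root of F, and intervals are 95%. Shares of paired members were compared by exact two-sided permutation (scipy 1.17.1). Scripts were tested on simulated data. Alternatives covered scaling, filters, DESeq2 1.42.0, limma-voom (limma 3.58.1), a fold change of 1.5, a replicate block and left-out libraries. Named genes outside the set are up to 4 called genes of smallest p per list plus 17 fixed genes. The set, the lists and the tests were chosen with earlier results of these data known. Promoter sequences are from RefSeq.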

Additional observations from a re-analysis of the deposited data

Results flagged for a closer look

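Ndfip1 in SAS was the one group with a library far from the others, among 104 groups of 4 libraries examined (members, named genes and shares). SAS replicate 3 stood at 268 CPM, above 178 to 185 CPM in the other SAS libraries, a gap beyond Dixon's critical value at the 95% level. Chance alone flags about 1 in 20 such groups. Ndfip1 kept its call without that library, with a log2 fold change of 0.99 (edgeR adjusted p 0.000555).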

How the results depend on the processing

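Cblb, Ndfip1 and Peli1 kept their direction under every alternative run, and their calls under all but the test against a fold change of 1.5. There Ndfip1 was called (adjusted p 0.00561), while Cblb (1.21, adjusted p 0.0678) and Peli1 (−0.53, adjusted p 1) were not, so 1 member was called as higher in SAS and 0 as lower. Leaving out single libraries gave log2 fold changes of 1.01 to 1.49 for Cblb, 0.99 to 1.24 for Ndfip1 and −0.58 to −0.50 for Peli1. With libraries scaled by their totals alone, which moved the median of all genes by 0.098 on the log2 scale, Ndfip2 (0.33, adjusted p 0.0412) and Traf6 (0.31, adjusted p 0.0208) were called too, making 4 members higher in SAS; DESeq2 called Traf6 (0.21, adjusted p 0.045), making 3. Without ANT replicates 4 and 5 Itch was called (−0.38), making 2 members higher in ANT, and Nedd4 turned to −0.055. Without ANT replicates 1 and 3 Cbl turned to −0.059. Single libraries moved Nedd4 between −0.22 and 0.23 and the difference in its share between −0.092 and 2.38 percentage points. With 3 libraries against 4, no exact permutation p under 0.05 is possible.

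Replicate numbers 1 and 3 occur in both clones, and the deviations of same-numbered libraries correlated at 0.29 and −0.12. Libraries of unlike number were not compared, so these values cannot decide whether same-numbered libraries form pairs. A replicate block rests on these 4 libraries and changed no call among the members; it turned Nedd4 to −0.27, Grb2 to 0.34, Dtx1 to 0.12, Tnfaip3 to 0.93 and Peli3 to 0.73. Under it Grb2 (adjusted p 0.0346), Usp8 (−0.44, adjusted p 0.00397) and Plcg1 (0.55, adjusted p 0.000623) were called, and Jun (−1.44, adjusted p 0.573), Junb (−0.80, adjusted p 0.688) and Prkcq (−0.32, adjusted p 0.0614) were not. With the block, 9 substrates rose and 0 fell in SAS, the TRAF list had 8 that rose and the other ligases 9.

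The test against a fold change of 1.5 called 1836 of all genes, against 4725 without that bound. It left 0 NEDD4-family genes higher in ANT, 1 Cbl partner higher in ANT, 1 substrate in each direction, 1 GRAIL relative higher in SAS and 0 in ANT, 2 TRAF genes higher in SAS and 1 in ANT, 3 GRB2-family genes higher in ANT and 2 other ligases higher in ANT. Scaling by totals gave 2 substrates higher in ANT, and 8 TRAF genes and 5 other ligases higher in SAS. DESeq2 gave 5 TRAF genes higher in ANT and 5 other ligases higher in SAS, and no low-count filter gave 2 substrates higher in SAS. Without ANT replicates 4 and 5, 8 substrates, 9 TRAF genes and 7 other ligases were higher in SAS. Without ANT replicates 1 and 3, 2 substrates and 1 GRAIL relative were higher in SAS and 5 TRAF genes higher in ANT. Single libraries gave 2 to 5 substrates higher in SAS and 1 to 5 in ANT, 1 to 2 GRAIL relatives higher in SAS, 4 to 6 NEDD4-family genes higher in ANT and 2 to 5 other ligases higher in SAS.

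Genes not called with all 8 libraries turned sign: Tnfaip3 (0.040 by totals, 0.86 without ANT replicates 4 and 5, −0.40 to 0.38 over single libraries), Otub1 (0.080 by totals, 0.12 without ANT replicates 1 and 3, −0.094 to 0.028), Grb2 (0.35 without ANT replicates 4 and 5, −0.31 to 0.013), Peli3 (0.60, −0.50 to 0.0065) and Dtx1 (0.26, −0.57 to 0.037) under the same settings, and Usp8 (0.19) and Traf1 (−0.016) without ANT replicates 1 and 3. The causes were not tested.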

Other observations

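The protein-coding genes that flank the members in the annotation were looked up after the values of the members had been seen. Of 20 such genes 15 were tested, 9 were higher in SAS, 1 was higher in ANT and 5 were not called, where 37.4% of all genes tested were called; the genes named here were chosen after their values were seen. Alcam, 40948 bases from Cblb, encodes the ligand of CD6 and stood at 36.6 ± 5.03 CPM over the SAS libraries, against 0.179 ± 0.0810 CPM over the ANT libraries (log2 fold change 7.66, edgeR adjusted p 1.77e-08). Prr5l, 12616 bases from Traf6, stood at 43.7 ± 4.55 CPM over the SAS libraries, against 0.00862 ± 0.0172 CPM over the ANT libraries, where it had a single count, while Traf6 itself was not called. B230118H07Rik, 28897 bases from Traf6, was the one flanking gene higher in ANT, at 0.0320 ± 0.0250 CPM over the SAS libraries, against 0.642 ± 0.282 CPM over the ANT libraries (log2 fold change −4.12, adjusted p 0.000337). Spry4, 120944 bases from Ndfip1, encodes a feedback inhibitor of receptor signalling and stood at 4.77 ± 0.555 CPM over the SAS libraries, against 0.167 ± 0.103 CPM over the ANT libraries (log2 fold change 4.80, adjusted p 7.79e-06). Mcam, 249 bases from Cbl, rose to 2.69 ± 0.656 CPM in SAS, against 0.541 ± 0.129 CPM in ANT (adjusted p 0.000143), while Cbl was not called. For Peli1, which fell, one neighbour was not called (Vps54, adjusted p 0.796) and the other, Lgalsl, was higher in SAS (adjusted p 0.00703; SD, n = 4 each).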
